A study of Caenorhabditis elegans with 6 samples.

Results

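The C-type lectin genes of Caenorhabditis elegans were taken as every row of the gene count table whose WormBase symbol is clec- followed by a number. This gave 240 rows with 237 symbols among 46756 identifiers, all of them annotated as protein coding. At least 1 read was counted for 211 of the 240, 29 were at 0 in every library, and 150 passed the count minimum of 10 reads summed over the 6 libraries and were tested. The other 61 with a count fell below that minimum.

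C-type lectin domains are protein folds that in many cases bind carbohydrates with the help of calcium. In the worm they make up a large family, many of whose members are secreted, and many clec genes are expressed in the intestine, where the worm digests bacteria and meets pathogens. Sets of clec genes change with the bacterium the worm feeds on, some of them downstream of the p38 kinase PMK-1, and several serve as markers of immune responses. The ligand and role of most members are not known.

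The study sequenced these worms to look for receptors behind the effect of hermaphrodite density on exophers, large vesicles that muscles release. Hermaphrodites were grown either with 1 worm per plate (solitary) or with 10 worms per plate (grouped), and polyA RNA of the whole organism was sequenced on adulthood day 2, with 3 libraries for each condition. All of them belong to strain ACH93, which carries in the N2 background the integrated transgenes wacIs1 and wacIs14. In both, the myo-3 promoter, active in body wall muscles, drives a fluorescent reporter (RPN-5 fused to wrmScarlet, and GFP on the outer mitochondrial membrane), with the unc-54 terminator and an unc-119(+) marker. Both conditions were kept on nematode growth medium with E. coli OP50 at 20 °C. The labels call the libraries biological replicates but do not give the number of plates or worms behind each, so p-values measure the spread between these libraries. From whole worms, fewer cells of a type and less RNA per cell cannot be told apart.

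The libraries held 55176436 to 62794403 counts on genes. Intestine markers were present in every library (7 of 8 listed genes in the table, all tested, with summed levels of 1598 to 1766 CPM, the counts scaled to a common library size, in solitary worms and 1555 to 1629 CPM in grouped worms) and none of them passed the test. Of 7 sperm markers, msp-3, msp-10, msp-142 and ssp-9 were at 0 in all libraries. Only spe-9 had enough counts to be tested, at 0.655 to 0.960 CPM. Of 7 male tail and seminal markers, cwp-1 was at 0 and 6 were tested. Of these, swm-1 was at 8.82 to 11.8 CPM and try-5 at 0.463 to 0.751 CPM. Only unique reads were counted, so a 0 need not mean absence. Solitary replicate 3 stood apart from the other solitary libraries in some secreted and cuticle genes. The CUB-like gene dod-24 was at 23.9, 21.8 and 4.49 CPM in solitary replicates 1 to 3 against 4.08, 5.29 and 3.36 CPM in grouped worms, and the cuticle collagen sqt-3 was at 18.5, 18.2 and 2.98 CPM against 21.3, 19.9 and 30.5 CPM. In the same lists dpy-7 was also low in solitary replicate 3 (0.206 CPM), but other genes set other libraries apart. rol-6 was at 2.22 CPM in solitary replicate 2 and 2.63 CPM in grouped replicate 3, against 0.0161 to 0.0685 CPM in the others. dod-19 was lowest in solitary replicate 2, at 281 CPM against 357 and 346 CPM in the other solitary libraries. For several clec genes in which solitary replicate 3 lay with or near the grouped libraries, the fold change is also given without it. The library was singled out after its values had been seen. Leaving out the solitary library nearest to the grouped level tends to enlarge a fold change by construction. Where that library also lies apart from the other solitary ones, the SE and the p tend to fall as well. A smaller SE without it is thus no sign of a more precise estimate.

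The clec genes together took 0.431% to 0.473% of the counts of a library. Their summed level was 4709, 4403 and 4695 CPM in the 3 solitary libraries and 4534, 4552 and 4406 CPM in the grouped libraries. The conditions overlapped, and the ratio of their medians, grouped to solitary, was 0.966. In each library 167 to 176 members had at least 1 count.

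A few genes carried most of this signal. The most abundant member took 31.5% of the summed clec CPM, the top 3 took 57.2% and the top 10 took 83.9%. Only 58 members reached a mean count of 100 per library, 23 reached 1000 and 7 reached 10000. The median mean count of the tested members was 40.4, against 203 over all 18428 genes tested.

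To compare genes with each other, CPM were divided by exonic length in kilobases. On that scale clec-87 (chromosome I of WBcel235, 10184462 to 10185520) had the highest level, 1492 ± 68.5 CPM per kb (SD over 6 libraries, n = 6). In CPM it was at 1412, 1370 and 1555 in solitary worms and at 1447, 1424 and 1387 in grouped worms. The grouped libraries all lay within the range of the solitary ones, with a log2 fold change of -0.026 ± 0.056 (SE) and an adjusted p of 0.901 (edgeR's quasi-likelihood test, as for every fold change here unless DESeq2 is named). Its exons share 138 nucleotides with those of iars-2 on the opposite strand, and whether the counting used strand is not given in the sources used here.

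clec-63 (chromosome II, 12895638 to 12897446) and clec-88 (chromosome II, 6365722 to 6367002) followed at 480.5 ± 29.0 and 452 ± 15.5 CPM per kb (SD, n = 6). Their ranges over the 6 libraries, 445.9 to 517 and 438.5 to 480.4 CPM per kb, overlapped, so the order of this pair is not set beyond the spread between libraries. Below them came clec-91 at 313 ± 13.96, clec-50 at 252.5 ± 19.4 and clec-150 at 206.5 ± 14.5 CPM per kb (SD, n = 6). The range of clec-91, 294 to 331 CPM per kb, lay above those of both others. clec-50 (234.7 to 286 CPM per kb) also lay above clec-150 (196.5 to 232.5 CPM per kb) in range, by a small gap.

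clec-47 was at 181.5 ± 42.5, clec-1 at 105 ± 12.01, clec-41 at 69.2 ± 15.5 and clec-65 at 61.0 ± 3.30 CPM per kb (SD, n = 6). The ranges of clec-150 and clec-47 overlapped, as did those of clec-1 and clec-41 and those of clec-41 and clec-65. Of these 10 genes, clec-47 and clec-41 had the widest spread between libraries relative to their level.

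**Figure D1:**
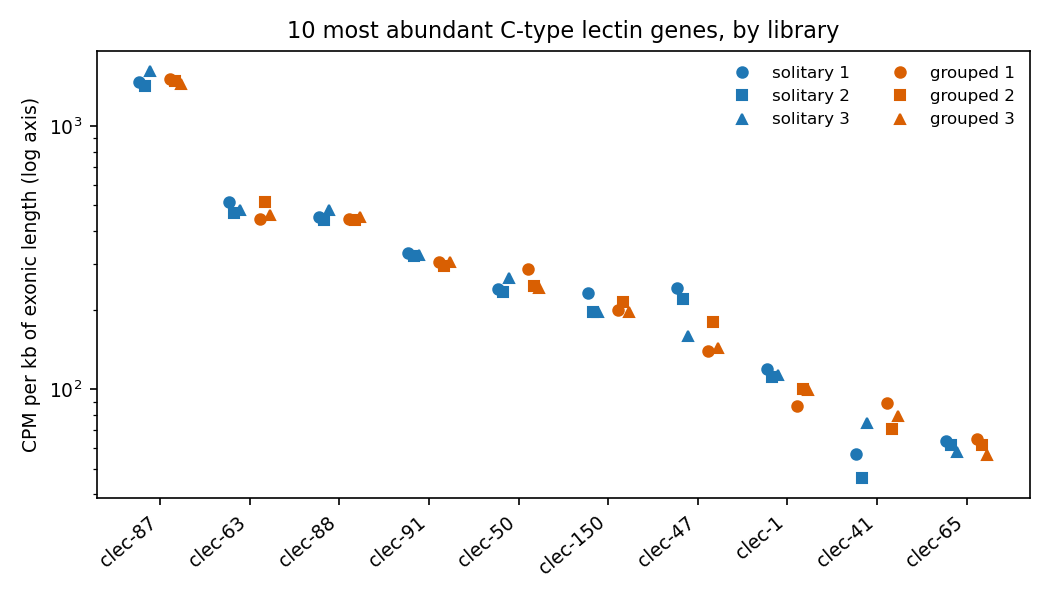
Level of the 10 most abundant C-type lectin genes in CPM per kb of exonic length (log axis), 1 point per library, solitary in blue and grouped in orange, with the replicate number given by the symbol's shape. clec-87 sits between 1428 and 1620 in all 6 libraries, about an order of magnitude above clec-1, and the solitary and grouped points overlap for most genes but not for clec-91 and clec-1.

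The comparison of grouped with solitary worms gave no clec gene past the threshold. With an adjusted p under 0.05, 0 of the 150 tested members were called by edgeR, against 44 of 18428 genes (0.239%), and 0 members met the fold threshold of the study as well (an absolute log2 fold change above 1), against 2 genes (0.0109%). The smallest adjusted p of a member was 0.0885, for clec-53 (edgeR). At an unadjusted p under 0.05, 18 members stood out, 4 higher in grouped worms (2.67% of members, against 5.19% of all genes) and 14 lower (9.33%, against 6.71%). After removal of a trend of the fold change with gene length the split was 7 higher and 12 lower. DESeq2, the tool of the study's methods, called 7 members at an adjusted p under 0.05, all of them lower in grouped worms and none past the fold threshold, among the 50 members for which it gave an adjusted p. They were clec-1, clec-53, clec-187, clec-190, clec-210, clec-218 and clec-265, with adjusted p from 0.00181 to 0.0237 (DESeq2). Over all genes with an adjusted p, it called 3.75% as lower.

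By the median the members did not lean far in either direction, though most of those at an unadjusted p under 0.05 (edgeR) were lower in grouped worms. The median log2 fold change of the tested members was -0.045, beside 0.0026 over all tested genes, with 84 members below 0 and 66 above. For the 58 members with a mean count of 100 or more it was -0.040, beside -0.0050 for the 10491 genes at that depth. With the length trend removed it was -0.0037 over the tested members, beside 0.015 over all tested genes. The size of the difference, whatever its sign, was larger, with a median absolute log2 fold change of 0.267 beside 0.133 over all tested genes, and of 0.157 beside 0.080 at a mean count of 100 or more. Noise alone also widens an absolute fold change, and the members had fewer counts. Their median mean count was 40.4 beside 203, and 667 beside 1954 at that depth. Their spread between replicates was wider too, as given below. How much of the size comes from this was not tested.

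**Figure D2:**
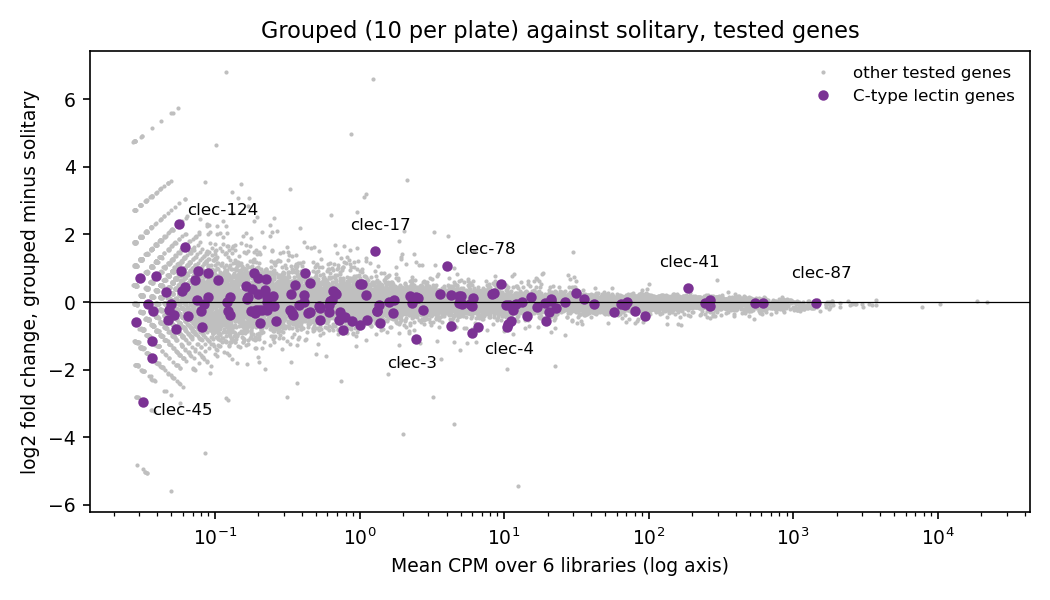
Log2 fold change, grouped minus solitary, against the mean CPM over 6 libraries (log axis) for the 18428 tested genes in grey and the 150 tested C-type lectin genes in purple. Of the abundant members clec-87 lies at -0.026 and clec-41 at 0.43, the members farthest from 0, such as clec-124 and clec-45, have few counts, and no purple point passed an adjusted p of 0.05 (edgeR).

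In 13 tested members every grouped library lay below every solitary library (8.67%, against 9.83% of all tested genes), and in 8 every one lay above (5.33%, against 8.51%). Among the 58 members with a mean count of 100 or more, 8 were separated with grouped worms lower (13.8%, against 13.4% of genes at that depth) and 1 with grouped worms higher (1.72%, against 10.3%). The 8 were clec-91, clec-1, clec-186, clec-187, clec-190, clec-169, clec-53 and clec-142, and the 1 was clec-43. clec-186 and clec-142, outside the rule for named genes, and clec-43 are named to account for the count. The lower share was thus near that of other genes of like depth.

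clec-53 (chromosome I, 3871474 to 3873402) had the smallest p. It was at 6.42, 5.04 and 4.64 CPM in solitary worms and at 3.21, 3.26 and 3.31 CPM in grouped worms. All grouped libraries lay below all solitary ones and close to each other. Its log2 fold change was -0.72 ± 0.14 (SE), with an adjusted p of 0.0885 in edgeR. In DESeq2 the adjusted p was 0.00181, and over the alternatives tried it ran from 0.000425 to 0.538.

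clec-187 (chromosome IV, 12869270 to 12871495) was at 18.2, 15.6 and 15.5 CPM in solitary worms and at 11.8, 12.3 and 12.9 CPM in grouped worms. The groups did not overlap, with a log2 fold change of -0.41 ± 0.092 (SE) and an adjusted p of 0.130 in edgeR. Its neighbour clec-186, which starts at 12866109 on the same chromosome, was at 76.5, 57.4 and 55.5 CPM against 52.2, 54.1 and 48.8 CPM. Here the groups were also separated, but solitary replicate 1 lay far above all others.

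clec-1 (chromosome V, 5700154 to 5701080), also among the 10 most abundant members, was at 92.4, 86.1 and 87.1 CPM in solitary worms and at 66.8, 77.1 and 76.8 CPM in grouped worms. The libraries of both conditions were separated. This gave a log2 fold change of -0.27 ± 0.058 (SE), with an adjusted p of 0.122 in edgeR and of 0.00834 in DESeq2 (range over the alternatives 1.5e-05 to 0.639).

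clec-91 (chromosome I, 9126140 to 9127101) was at 282, 274 and 275 CPM in solitary worms and at 261, 251 and 260 CPM in grouped worms. It had the smallest spread between replicates of the 58 members with a mean count of 100 or more, 0.028 on the log2 scale, and the groups did not overlap. Its log2 fold change of -0.11 ± 0.039 (SE) gave an adjusted p of 0.299 in edgeR, and with the length trend removed it was -0.040.

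clec-190 (chromosome IV, 15124931 to 15126121) was at 10.2, 8.91 and 5.72 CPM in solitary worms and at 4.11, 5.41 and 5.51 CPM in grouped worms. The groups were separated, but solitary replicate 3 lay close to the grouped libraries. With this spread the log2 fold change was -0.73 ± 0.22 (SE), with an adjusted p of 0.243 (edgeR). It was -0.93 ± 0.14 without solitary replicate 3 and -0.55 without solitary replicate 1. The gene overlaps piRNA genes by 21 nucleotides on the same strand and 14 on the opposite strand.

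clec-265 (chromosome X, 3031783 to 3033117) was at 25.3, 26.6 and 17.8 CPM in solitary worms and at 14.3, 18.8 and 14.1 CPM in grouped worms. Solitary replicate 3 fell among the grouped libraries, so the groups overlapped, with a log2 fold change of -0.57 ± 0.18 (SE) and an adjusted p of 0.304 (edgeR). Without that library it was -0.73 ± 0.12, and without solitary replicate 2 it was -0.46. clec-66 (chromosome II, 12904398 to 12906644) also overlapped in solitary replicate 3, at 24.2, 23.4 and 20.0 CPM in solitary worms against 17.1, 21.04 and 16.4 CPM in grouped worms. Its log2 fold change was -0.31 ± 0.11 (SE), with an adjusted p of 0.294 (edgeR). It was -0.39 ± 0.10 without solitary replicate 3 and -0.24 without grouped replicate 3. The value largest in size, -0.43, came without grouped replicate 2.

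At a mean count of 100 or more, 35 members had a log2 fold change below 0 and 23 above. clec-41 (chromosome V, 13134903 to 13138101) was at 154, 125 and 202 CPM in solitary worms and at 241.5, 192 and 215.5 CPM in grouped worms. Solitary replicate 3 lay above grouped replicate 2, and the log2 fold change of 0.43 ± 0.21 (SE) had an adjusted p of 0.537 (edgeR). It was 0.63 ± 0.15 without solitary replicate 3 and 0.275 without solitary replicate 2. clec-47 (chromosome V, 15175759 to 15176324) showed the opposite order, at 127, 115 and 82.9 CPM in solitary worms against 72.9, 94.0 and 74.8 CPM in grouped worms. Again solitary replicate 3 lay within the grouped range, with a log2 fold change of -0.42 ± 0.21 (SE) and an adjusted p of 0.528 (edgeR). The fold change was -0.58 ± 0.13 without that library and -0.30 without solitary replicate 1.

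clec-166 (chromosome IV, 1249192 to 1251342) was at 6.89, 7.35 and 8.67 CPM in solitary worms and at 9.53, 9.68 and 8.65 CPM in grouped worms. Solitary replicate 3 and grouped replicate 3 met at nearly the same level. Its log2 fold change was 0.28 ± 0.11 (SE), with an adjusted p of 0.353 (edgeR). It was 0.38 ± 0.11 without solitary replicate 3 and 0.21 without solitary replicate 1.

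The other abundant genes stayed close to 0. clec-63, clec-88, clec-50, clec-150 and clec-65 had log2 fold changes of -0.041 ± 0.060, -0.038 ± 0.046, 0.070 ± 0.070, -0.035 ± 0.067 and 0.0039 ± 0.057 (SE), with adjusted p from 0.767 to 0.990 (edgeR). A p that misses the threshold does not show that their levels were equal, but these standard errors are small against a change of 1 on the log2 scale. Over all members with a mean count of 100 or more the median standard error was 0.127, and for 48 of the 58 the absolute log2 fold change was under 0.5. For the 92 tested members with fewer counts the median standard error was 0.462.

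Replicates of one condition differed more for clec genes than for most genes. The SD of log2(CPM + 0.5) within a condition had a median of 0.129 over the 58 members with a mean count of 100 or more, from 0.028 to 0.822, beside 0.085 for the 10491 genes at that depth. In 26 of the 58 (44.8%) it was above 0.137, the upper quartile of those genes. The members had fewer counts, with a median mean count of 667 beside 1954. Once the tagwise dispersion was divided by the trend for genes of like abundance, the median ratio of the biological coefficient of variation was 0.918 beside 0.874, a smaller gap. The fit draws tagwise values toward that trend, which in itself narrows such a gap. How much of the wider spread comes from depth was not tested.

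**Figure D3:**
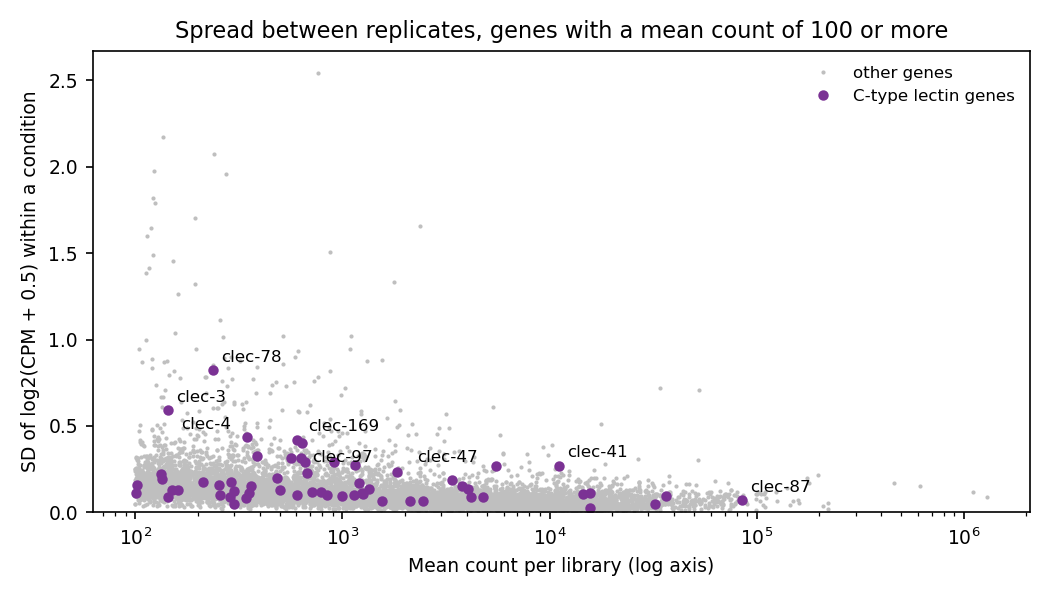
SD of log2(CPM + 0.5) within a condition (4 residual degrees of freedom) against mean count per library (log axis), for all genes at a mean count of at least 100, other genes in grey and the 58 C-type lectin genes in purple. clec-78 at 0.822 and clec-3 at 0.592 are the highest members, clec-41 and clec-47 stand above genes of like depth, and clec-87 has an SD of 0.071.

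The member with the widest spread was clec-78 (chromosome IV, 3989102 to 4014235), with 10850 nucleotides of exon in 26 blocks an unusually long gene for this family. It was at 4.91, 2.28 and 0.651 CPM in solitary worms and at 6.95, 4.94 and 4.40 CPM in grouped worms. Its solitary libraries differed 7.54-fold among themselves, and the highest of them lay above grouped replicate 3. The log2 fold change was 1.06 ± 0.74 (SE), with an adjusted p of 0.668 (edgeR). It rested on single libraries, since it was 1.88 without solitary replicate 1 and 0.60 without solitary replicate 3.

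clec-3 (chromosome II, 3017468 to 3019907) came next, at 5.04, 3.73 and 1.34 CPM in solitary worms and at 1.40, 1.63 and 1.71 CPM in grouped worms. Solitary replicate 3 was the lowest of all 6 libraries. Over all libraries its log2 fold change was -1.09 ± 0.48 (SE), with an adjusted p of 0.457 (edgeR), and without solitary replicate 1 it was -0.68. Its exons share 47 nucleotides with C41H7.2 on the opposite strand.

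clec-4 (chromosome II, 12578331 to 12581113), a gene used as a marker of the response to pathogens, was at 10.1, 8.22 and 5.14 CPM in solitary worms and at 3.32, 5.71 and 3.31 CPM in grouped worms. Solitary replicate 3 lay below grouped replicate 2, so the groups overlapped. The log2 fold change was -0.92 ± 0.33 (SE), with an adjusted p of 0.364 (edgeR). It was -1.15 ± 0.26 without solitary replicate 3 and -0.70 without solitary replicate 1. The value largest in size, -1.24, came without grouped replicate 2.

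clec-169 (chromosome IV, 1261324 to 1264622) was at 19.4, 10.9 and 8.72 CPM in solitary worms and at 7.79, 8.70 and 6.91 CPM in grouped worms. The groups were separated only by the small step from 8.70 to 8.72 CPM, and solitary replicate 1 lay far above the rest. The log2 fold change was -0.74 ± 0.33 (SE), with an adjusted p of 0.4705 (edgeR). Without solitary replicate 1 it was -0.33, and without solitary replicate 3 it was -0.95.

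clec-218 (chromosome V, 8307942 to 8310766) was at 13.99, 15.97 and 9.17 CPM in solitary worms and at 9.67, 7.95 and 7.32 CPM in grouped worms, with a log2 fold change of -0.65 ± 0.21 (SE) and an adjusted p of 0.304 (edgeR). clec-7 (chromosome V, 7328392 to 7330002) was at 6.47, 6.11 and 10.9 CPM in solitary worms against 12.3, 10.5 and 11.2 CPM in grouped worms, with a log2 fold change of 0.53 ± 0.22 (SE) and an adjusted p of 0.408 (edgeR). In both genes solitary replicate 3 fell within the grouped range and the other solitary libraries fell outside it. Without it the log2 fold change was -0.85 ± 0.12 for clec-218 and 0.85 ± 0.11 for clec-7. Without solitary replicate 2 the values were -0.48 and 0.38.

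clec-97 (chromosome I, 11152704 to 11154330) was at 12.6, 13.8 and 7.13 CPM in solitary worms and at 12.5, 8.30 and 10.5 CPM in grouped worms. Solitary replicate 3 was the lowest library and solitary replicate 2 the highest, and the log2 fold change of -0.098 ± 0.29 (SE) had an adjusted p of 0.930 (edgeR). Without solitary replicate 3 it was -0.34 ± 0.15. The gene shares 118 nucleotides of exon with clec-98, so the counts of this pair are uncertain. With the ratio of tagwise to trended dispersion as the measure of spread, 5 of the 8 most variable members were the same ones.

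**Figure D4:**
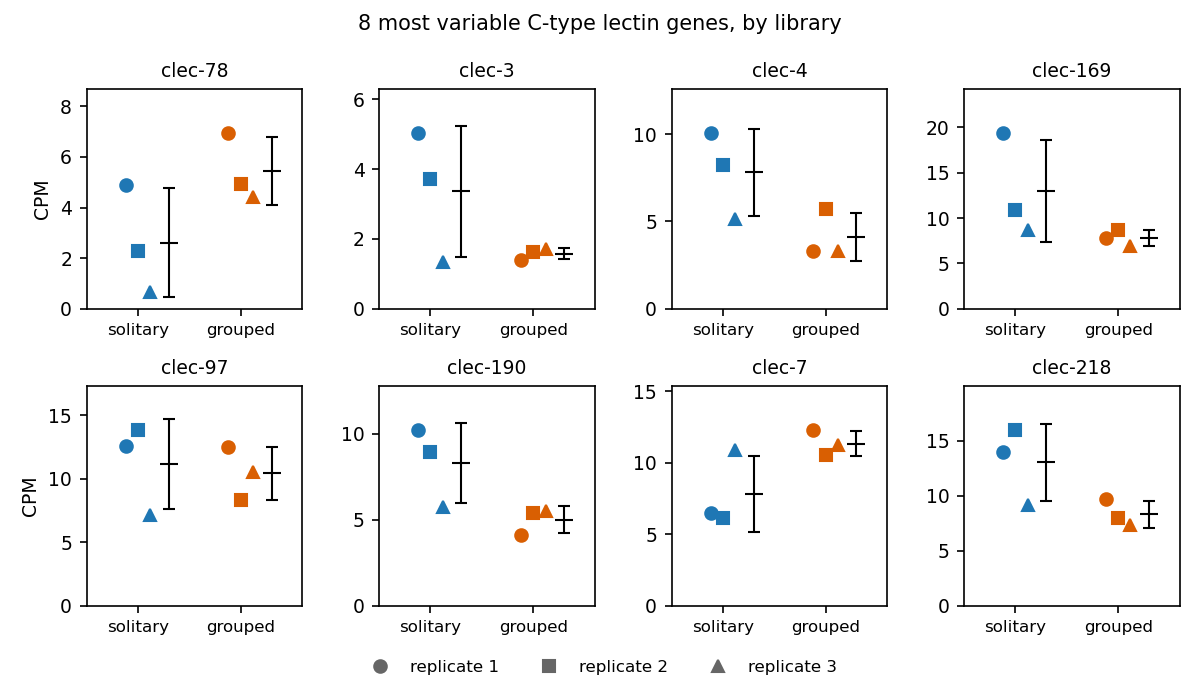
CPM in each library of the 8 C-type lectin genes with the largest SD within a condition, solitary in blue and grouped in orange, the symbol's shape giving the replicate and the bar the mean ± SD of 3 libraries. Solitary replicate 3 (blue triangle) lies nearest to the grouped level of the 3 solitary libraries in 6 of the 8 genes, as in clec-7 (10.9 CPM), and farthest from it in clec-78 (0.651 CPM).

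This place of solitary replicate 3 extended beyond the variable members. It was the solitary library nearest to the mean of grouped worms in 35 of the 58 members with a mean count of 100 or more (60.3%), beside 35.3% of all genes at that depth. In 25 of the 58 it was the lowest of the solitary libraries and in 18 the highest. With so few libraries each is often an extreme, and the share over all genes was not counted. Solitary replicate 3 lay farthest from the solitary median in 28 of the 58, solitary replicate 1 in 21 and solitary replicate 2 in 9. dod-24, lec-11 (28.1, 25.7 and 15.4 CPM in solitary worms against 16.8, 17.2 and 18.6 CPM) and dod-17 (11.3, 9.36 and 5.07 CPM against 4.64, 6.22 and 5.03 CPM) also had solitary replicate 3 at or below the level of grouped worms. Like sqt-3, they were picked once their values were known. The part of this library's state in the clec values was not tested.

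Solitary replicate 3 was singled out after its values had been seen, so calls and adjusted p without it were favoured by that choice. Each other fit with a library left out called 0 members. Over all genes, calls at an adjusted p under 0.05 (edgeR) rose from 44 with all libraries to 391 without it. Without solitary replicate 3, edgeR called 10 of 149 tested members at an adjusted p under 0.05, against 2.17% of all genes, 8 lower and 2 higher in grouped worms. They were clec-210, clec-218, clec-265, clec-187, clec-190, clec-3, clec-53 and clec-5 on the lower side and clec-7 and clec-17 on the higher side. 6 of the 7 genes that DESeq2 called in all libraries were among them, the remaining one being clec-1. Only clec-3 and clec-17 met the fold threshold as well. For clec-3 the log2 fold change without that library was -1.47, with an adjusted p of 0.00267 in edgeR (range over the alternatives 0.00267 to 0.731), and for clec-7 it was 0.85 with an adjusted p of 0.00313 (range 0.00117 to 0.722). Without a count minimum, edgeR on all 6 libraries called 12 of 211 members, against 2.94% of all genes, 10 lower and 2 higher, and these held all 7 genes of DESeq2. All these fits draw on the same counts, so a call that they share is not an independent result.

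clec-17 (chromosome I, 12430028 to 12431500), named after its values had been seen, had an SD within a condition of 0.869 at a mean count of 75.8. Solitary replicates 1 to 3 held 0, 8 and 108 reads, and the grouped libraries held 111, 91 and 137. The 3 solitary libraries thus ran from no read to the level of grouped worms. With all libraries the log2 fold change was 1.504 ± 1.37 (SE), with an adjusted p of 0.756 (edgeR). Without solitary replicate 3, when the solitary arm holds only the 0 and 8 reads, it was 4.73, with an adjusted p of 0.0204 in edgeR (range over the alternatives 0.0204 to 0.892).

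clec-210 and clec-5, outside the rule for named genes, are described to account for the 10. clec-210 was at 16.9, 13.6 and 9.70 CPM in solitary worms and at 8.98, 9.998 and 8.09 CPM in grouped worms, with 42 nucleotides of exon shared with srt-56 on the opposite strand. clec-5 was at 13.3, 14.7 and 9.42 CPM in solitary worms and at 10.2, 10.7 and 10.6 CPM in grouped worms. In clec-210 solitary replicate 3 lay among the grouped libraries, and in clec-5 below all of them. The log2 fold changes were -0.57 ± 0.19 (SE) and -0.25 ± 0.14 over all libraries, and -0.76 and -0.42 without solitary replicate 3 (edgeR). With another library left out they came as near to 0 as -0.37 and -0.12.

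**Figure D5:**
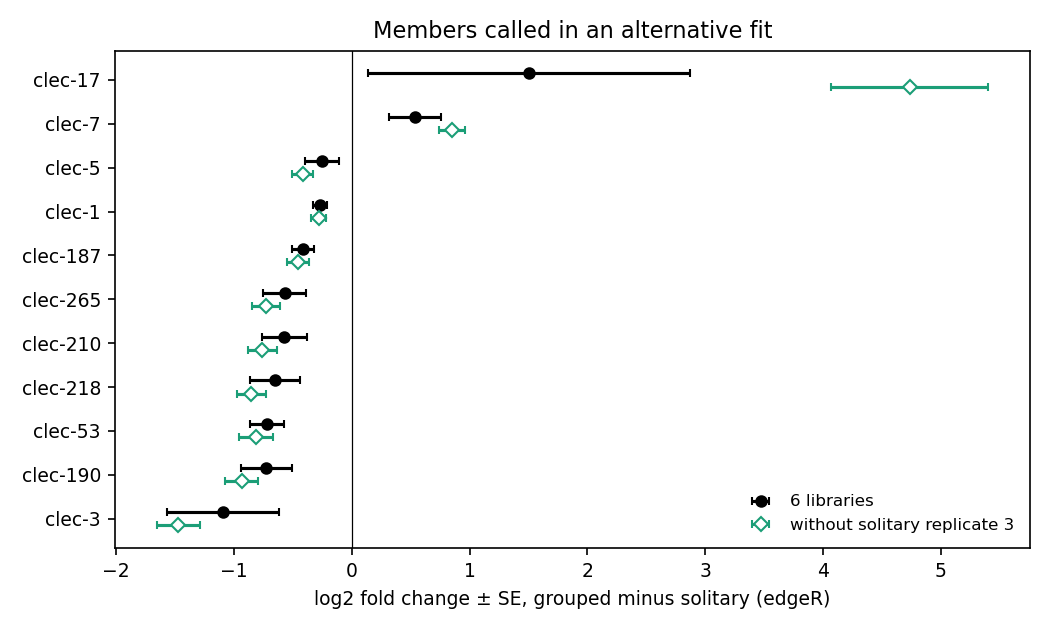
Log2 fold change ± SE (edgeR), grouped minus solitary, for the 11 C-type lectin genes called by DESeq2 on all libraries or by edgeR without solitary replicate 3, from all 6 libraries (black) and without that library (green). Each value moves away from 0 when the library is left out, from -1.09 to -1.47 in clec-3 and from 1.504 to 4.73 in clec-17. Most of these genes were picked by their calls in that same fit, so the shift was largely fixed by the selection.

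Of the genes used in the field as immune response markers, clec-60 (chromosome II, 10480043 to 10481874) was barely detected, with 4, 2 and 1 reads in solitary worms and 4, 1 and 1 in grouped worms. No difference could be measured at this depth. clec-67 (chromosome IV, 3922165 to 3925039) was at 3.92, 3.19 and 2.79 CPM in solitary worms and at 4.26, 3.50 and 3.87 CPM in grouped worms, with a log2 fold change of 0.23 ± 0.16 (SE) and an adjusted p of 0.612 (edgeR). It was 0.37 without solitary replicate 1 and 0.13 without solitary replicate 3. clec-85 (chromosome IV, 2850886 to 2855456) was at 67.6, 56.9 and 70.6 CPM against 63.2, 68.9 and 56.4 CPM, with a log2 fold change of -0.049 ± 0.100 (SE) and an adjusted p of 0.896 (edgeR). The conditions overlapped in both, and 397 nucleotides of clec-85 exon are shared with Y54G2A.40 on the same strand. The log2 fold changes of these genes and clec-4, none of which passed the test, differed in sign.

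The family is spread over the genome in runs of neighbours. Chromosome V held 86 members (51 tested), IV held 53 (41 tested), II held 48 (29 tested), I held 36 (15 tested), III held 14 (11 tested) and X held 3 (3 tested). Joined where the gap to the next member was at most 10000 nucleotides, 99 members lay in 19 groups of 3 or more, 28 groups were pairs and 85 members stood alone. Members of a group are often similar in sequence, and since only uniquely placed reads were counted, reads that fit several of them may be lost.

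Abundance differed widely between these groups. The largest, 13 genes from clec-40 to clec-33 on chromosome V (16839121 to 16869840), had 12 tested members but none with a mean count of 100, and summed to 4.89, 4.79 and 4.25 CPM in solitary worms and 5.79, 5.11 and 3.98 CPM in grouped worms. The 5 genes clec-62 to clec-66 on chromosome II (12893062 to 12906644), with clec-63 and clec-65, summed to 848, 766 and 775 CPM in solitary worms and to 734, 833 and 745.5 CPM in grouped worms. Both groups overlapped between the conditions. The 7 genes from clec-127 to clec-134 on chromosome II (3568117 to 3581475) had no tested member.

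In the 6 genes clec-165 to clec-170 on chromosome IV (1245171 to 1274425), clec-169 and clec-166 had log2 fold changes of opposite sign, -0.74 and 0.28. The 4 neighbours clec-38, clec-34, clec-29 and clec-39 on chromosome V (16733821 to 16741588), all with few counts, summed to 0.386, 0.542 and 0.583 CPM in solitary worms and to 0.677, 0.723 and 0.733 CPM in grouped worms. Their libraries were separated in sum and all 4 log2 fold changes were above 0, but the smallest unadjusted p among them was 0.052 (edgeR). This group was chosen after its values had been seen.

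The symbols clec-15, clec-209 and clec-249 each stood on 2 identifiers of equal exonic length, which may be near-identical copies that split or lose reads. Both clec-15 rows were at 0, and the clec-249 rows held 0 and 1 read in all. The clec-209 rows held 88, 86 and 75 reads in solitary worms against 67, 66 and 80 in grouped worms, and 102, 98 and 89 against 49, 83 and 63. Only the second was separated between conditions, with a log2 fold change of -0.62 ± 0.23 (SE) and an adjusted p of 0.312 (edgeR), and with shared sequence the 2 rows are uncertain. In all, 40 members shared exon with another gene, 29 with one on the opposite strand and 12 with one on the same strand.

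Other immune and sugar-binding genes were compared by lists chosen for their known roles. Over all tested genes, 0.239% had an adjusted p under 0.05 (edgeR), and 5.19% were higher and 6.71% lower at an unadjusted p under 0.05. Among regulators of p38 and intestinal immunity, 0 of 23 tested genes had an adjusted p under 0.05 (edgeR), with 3 higher and 1 lower at an unadjusted p under 0.05 and a median log2 fold change of 0.049. That median was 0.0011 with the length trend removed. Of the cascade upstream of the p38 kinase, the log2 fold changes were 0.22 ± 0.087 (SE) for the adaptor tir-1, 0.20 ± 0.064 for the kinase nsy-1 and 0.018 ± 0.062 for the kinase sek-1, with adjusted p of 0.349, 0.237 and 0.942 (edgeR). With the length trend removed those of tir-1 and nsy-1 were 0.11 and 0.098. pmk-1, the p38 kinase itself, was at 52.6 ± 4.82 CPM in solitary worms and 56.4 ± 4.33 CPM in grouped worms (SD, n = 3), with an adjusted p of 0.664 (edgeR).

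Among saposin-like and antibacterial factor genes, whose products act on bacterial membranes, 2 of 25 tested genes fell at an adjusted p under 0.05 (edgeR). spp-3 fell from 111 ± 3.45 to 90.6 ± 5.07 CPM (SD, n = 3) and spp-5, a pore-forming protein of the intestine, from 253 ± 8.95 to 212 ± 9.47 CPM, with adjusted p of 0.0447 and 0.0498 (edgeR). With the length trend removed their log2 fold changes went from -0.29 to -0.062 and from -0.26 to -0.046. At an unadjusted p under 0.05, 7 of the 25 were lower and 1 higher, beside the 6.71% and 5.19% of all genes, and the median was -0.075. With the length trend removed that median was 0.0051. The 1 higher, spp-7, held 1, 0 and 0 reads in solitary worms and 7, 1 and 5 in grouped worms.

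The galectins, a family of sugar-binding proteins that need no calcium, had 12 tested genes, none with an adjusted p under 0.05 (edgeR), 4 lower and 0 higher at an unadjusted p under 0.05, and a median log2 fold change of -0.063. That median was -0.051 with the length trend removed. Of the CUB-like and thaumatin genes 8 were tested and none passed, with 1 higher and 0 lower at an unadjusted p under 0.05 and a median of 0.060. With the length trend removed their median was 0.052. In that list dod-24 had the widest difference, a log2 fold change of -1.98 ± 0.73 (SE) with an adjusted p of 0.421 (edgeR), and solitary replicate 3 (4.49 CPM) lay among the grouped libraries.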

How the data were processed

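Libraries of polyA RNA, 3 per condition, were analysed. Per the labels and the study's methods, the authors trimmed paired-end reads (Trimmomatic 0.36), aligned them to WBcel235 (STAR 2.5.2b) and counted unique reads within exons (featureCounts of Subread 1.5.2). The deposited values are counts per gene without normalization. The second deposited table, the same counts divided by 1 factor per library, was not used. Symbols matched 43798 of 46756 identifiers. Positions and exonic lengths (union of exons) came from the Ensembl annotation of WBcel235.

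All genes with at least 10 counts over the 6 libraries (18428) were tested with edgeR 4.0.16 in R 4.3.3 (TMM, robust quasi-likelihood F test, Benjamini-Hochberg adjustment over all of them, no covariate). Each SE was obtained from the log2 fold change and its F statistic (size of the change over the root of F). CPM are scaled by TMM. The script was tested on simulated data. Alternatives were DESeq2 1.42.0, its size factors, filterByExpr, no count minimum, total counts in place of TMM, a replicate block, removal of a length trend (lowess, span 0.3, as an offset), and each library left out in turn.

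The genes named are the 10 with the highest level per kb, the 8 with the largest SD within a condition and the 4 highest and 4 lowest fold changes among those with a mean count of 100 or more, the 8 with the smallest p, any with an adjusted p under 0.05, and clec-4, clec-60, clec-67 and clec-85. Members and lists were chosen with earlier results of these data known. No sequence is shown.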

Additional observations from a re-analysis of the deposited data

How the results depend on the processing

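At an adjusted p under 0.05, edgeR called 0 clec genes with DESeq2's size factors, with total counts, with filterByExpr, with the length trend removed and in 5 of the 6 fits that left out a library. DESeq2 called 7, and edgeR without a count minimum 12. Leaving out a library gave 0 to 10 calls, and 0 to 2 past both thresholds, the highest of each without solitary replicate 3. Deviations from the condition means had correlations of 0.172, -0.292 and -0.289 between same-numbered libraries. Solitary replicate 2 with grouped replicate 3 gave 0.411, and solitary replicate 3 with grouped replicate 2 gave 0.298. With so few libraries these values cannot settle whether samples were paired. With a block that joins equal replicate numbers, 0 clec genes were called, with a median log2 fold change of -0.050. The median stayed below 0 in each alternative. The ratio of summed CPM was 0.952 to 0.997 with a library left out. Of 26 named genes, 18 kept their sign in the 13 alternatives. clec-87 turned to 0.00069 with total counts and 0.028 with the length trend removed, and clec-97 to 0.0024 with the latter. With a library left out, the log2 fold change ran from -0.014 to 0.121 for clec-50, -0.141 to 0.022 for clec-85, -0.629 to 0.022 for clec-60, -0.104 to 0.00044 for clec-63, -0.046 to 0.056 for clec-65, -0.068 to 0.029 for clec-87, -0.339 to 0.082 for clec-97 and -0.080 to 0.045 for clec-150. The cause was not tested. Depth limits the 92 tested members with a mean count under 100, whose median standard error was 0.462. Standard errors there reach 1.37, as in clec-17, where spread between the solitary libraries (0, 8 and 108 reads) also enters.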
